A study of Mus musculus with 20 samples.

Results

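The genes described here are 10 members of the Nrf2 pathway and of the antioxidant enzymes that work beside it, namely Nfe2l2, Keap1, Nqo1, Hmox1, Gclc, Gclm, Txnrd1, Srxn1, Gpx4 and Sod3. They were chosen by symbol. Sod3 was in addition chosen by its measured gain in 1 knockout line with the Ctrl vector. Its values in every contrast that uses the KO1 Ctrl or the WT Ctrl libraries are therefore given as a description with no test. The KO2 Ctrl libraries may have entered that choice too, so its change with Myc in KO2 is read as a description, though it stays in the counts of calls. All 10 were present in both count tables, among 13107 genes in the first experiment and 11210 in the second, and all 10 passed the filter on low counts, which removed 0 genes from either table.

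mRNA was measured by RNA-seq in 20 libraries of a cultured mouse line, p19/Nras, grown from a liver tumour of a p19/Arf-null animal that expressed Nras. In the Myc experiment, Trim33-WT cells (sgCtrl) and both knockouts, Trim33-KO1 and Trim33-KO2 (sgTrim33), carried either the empty pWZL vector (Ctrl) or Myc, and in the HU experiment, Trim33-WT (sgCtrl) and Trim33-KO (sgTrim33) cells received vehicle or 1 mM hydroxyurea (HU) for 4 h. Each of the 10 groups had 2 libraries, and every group shared the p19 loss and Nras of the parental line. Trim33 is a ubiquitin ligase that also binds chromatin, and HU blocks ribonucleotide reductase and stalls DNA replication. The labels do not say which knockout line entered the HU experiment, and the sources used here do not say whether the lines are clones. The study's text speaks of independent RNA-seq experiments for the knockout lines, but nothing ties the libraries of a group to separate cultures one by one. The p-values below therefore measure only the spread between these libraries, which may be technical.

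Nfe2l2 encodes Nrf2, a transcription factor that pairs with small Maf proteins and binds antioxidant response elements near genes for detoxification, glutathione synthesis and the thioredoxin cycle. Keap1 holds Nrf2 in the cytoplasm and delivers it to the Cul3 ubiquitin ligase, so that Nrf2 is mostly controlled at the level of its protein, and the counts analysed here see mRNA only. In liver tumours the pathway is known for mutations in Nfe2l2 or Keap1 that activate the pathway, and for protecting cells against reactive oxygen species.

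Promoter sequence is shown for the 4 members in which the core of the antioxidant response element, TGACNNNGC, was found within a window from 250 bases before to 50 bases after a transcription start. The windows are from RefSeq (GRCm38.p6), each matched mm9, the build of the count tables, at 1 place over its whole length, and the coordinates are those of mm9. RefSeq gave 12 windows for 7 of the 10 members, and Hmox1, Gclc and Sod3 were not in the table. Capitals mark each match to TGACNNNGC or to TGANTCA, the AP-1 motif, on either strand, and positions count from 1 at the first transcribed base with no position 0.
Nfe2l2 (minus strand, chr2:75542671-75542970): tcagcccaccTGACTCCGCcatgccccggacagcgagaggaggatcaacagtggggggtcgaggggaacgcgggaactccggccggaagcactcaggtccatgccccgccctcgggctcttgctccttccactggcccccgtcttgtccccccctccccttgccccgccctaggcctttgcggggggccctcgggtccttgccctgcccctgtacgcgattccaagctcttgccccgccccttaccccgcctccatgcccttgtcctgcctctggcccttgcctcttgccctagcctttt
Gclm (plus strand, chr3:121948225-121948524): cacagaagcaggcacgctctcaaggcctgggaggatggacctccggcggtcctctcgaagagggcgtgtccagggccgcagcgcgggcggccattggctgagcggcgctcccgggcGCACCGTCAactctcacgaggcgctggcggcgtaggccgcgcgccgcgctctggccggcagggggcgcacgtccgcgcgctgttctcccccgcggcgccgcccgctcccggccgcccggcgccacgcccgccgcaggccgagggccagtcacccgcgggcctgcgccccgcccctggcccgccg
Txnrd1 (plus strand, chr10:82321701-82322000): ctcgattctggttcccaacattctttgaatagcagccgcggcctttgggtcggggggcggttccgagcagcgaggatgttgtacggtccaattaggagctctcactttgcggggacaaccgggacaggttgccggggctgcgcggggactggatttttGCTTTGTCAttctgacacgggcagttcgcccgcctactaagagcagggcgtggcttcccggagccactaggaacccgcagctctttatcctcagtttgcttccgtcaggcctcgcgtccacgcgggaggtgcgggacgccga
Srxn1 (plus strand, chr2:151931010-151931309): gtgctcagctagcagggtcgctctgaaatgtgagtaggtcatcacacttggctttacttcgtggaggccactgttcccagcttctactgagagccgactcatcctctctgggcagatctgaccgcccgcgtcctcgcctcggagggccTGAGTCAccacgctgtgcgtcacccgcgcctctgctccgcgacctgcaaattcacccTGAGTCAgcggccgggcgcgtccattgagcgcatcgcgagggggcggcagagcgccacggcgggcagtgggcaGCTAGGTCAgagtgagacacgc
The core lay from position -240 to -232 in Nfe2l2, from -134 to -126 in Gclm, from -92 to -84 in 1 of the 3 Txnrd1 windows, and from 29 to 37 in Srxn1. Srxn1 also held TGAGTCA from -102 to -96 and from -45 to -39. Over all 32851 windows of the table, 12.4% held TGACNNNGC, 7.81% held TGANTCA and 7.15% held CACGTG, the E-box bound by Myc, which was found in 0 of the members' windows. The genes without a printed window lie in mm9 at chr8:109912125-109927106 (Nqo1, minus strand), chr8:77617490-77624495 (Hmox1, plus), chr9:21034174-21043776 (Keap1, minus), chr9:77602342-77642292 (Gclc, plus), chr10:79509911-79519184 (Gpx4, plus) and chr5:52755185-52762644 (Sod3, plus). A match describes letters only, and its absence says nothing of a factor.

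Levels are given as CPM, each gene's counts relative to the library total, scaled with TMM factors within each experiment, and levels are compared between groups of 1 experiment and never between genes. The Myc libraries held between 14753177 and 17949430 counts each and the HU libraries between 2315327 and 3082202, so that the second table resolves smaller changes less well. A gene was called where the adjusted p of edgeR's quasi-likelihood test, corrected by Benjamini and Hochberg over the whole table, was under 0.01 in the Myc experiment or under 0.05 in the HU experiment.

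The targeted gene was measured first. Trim33 mRNA fell by 0.99 on the log2 scale in KO1 and by 0.31 in KO2 with the Ctrl vector, and by 1.49 in the KO cells of the HU experiment under vehicle. Under the Myc labels it was 0.40 higher on the log2 scale in KO1 than in WT (edgeR, adjusted p = 0.000243), against the direction of the labels, and the libraries labelled WT Myc were further apart than any other pair, with a mean squared difference of 11 times the counting noise against 2.21 to 4.56 elsewhere. Their Myc mRNA, at 456 and 458 CPM, was close to the 433 and 439 CPM of WT with the Ctrl vector (edgeR, adjusted p = 0.31). Trim33 mRNA was itself 0.82 lower on the log2 scale in WT Myc than in WT Ctrl (edgeR, adjusted p = 6.98e-08). Its mean was 143 CPM in WT Myc, against 252 CPM in WT Ctrl and 127 CPM in KO1 Ctrl. Under the Myc labels, KO2 against WT did not pass for Trim33 (log2FC -0.20, adjusted p = 0.0263, edgeR). Other genes kept the order of the labels, with Dntt at 0.06 CPM in WT Myc, 17.9 CPM in KO1 Myc and 3.09 CPM in KO2 Myc, and Grem1 at 12.7, 1.16 and 0 CPM. The Myc groups are called by their labels below, and no direction is drawn from Trim33 there. Of the hepatocyte markers searched, 0 of 8 were in either table, and likewise 0 of 3 endothelial markers. Of 7 hepatoblast and epithelial markers, 5 (Afp, Krt8, Krt18, Krt19 and Sox9) were in both tables, while Epcam and Cdh1 were in neither. Of 6 mesenchymal markers, 5 were in the Myc table and 3 in the HU table. In bulk RNA, fewer cells of a type and less RNA per cell cannot be told apart.

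**Figure D1:**
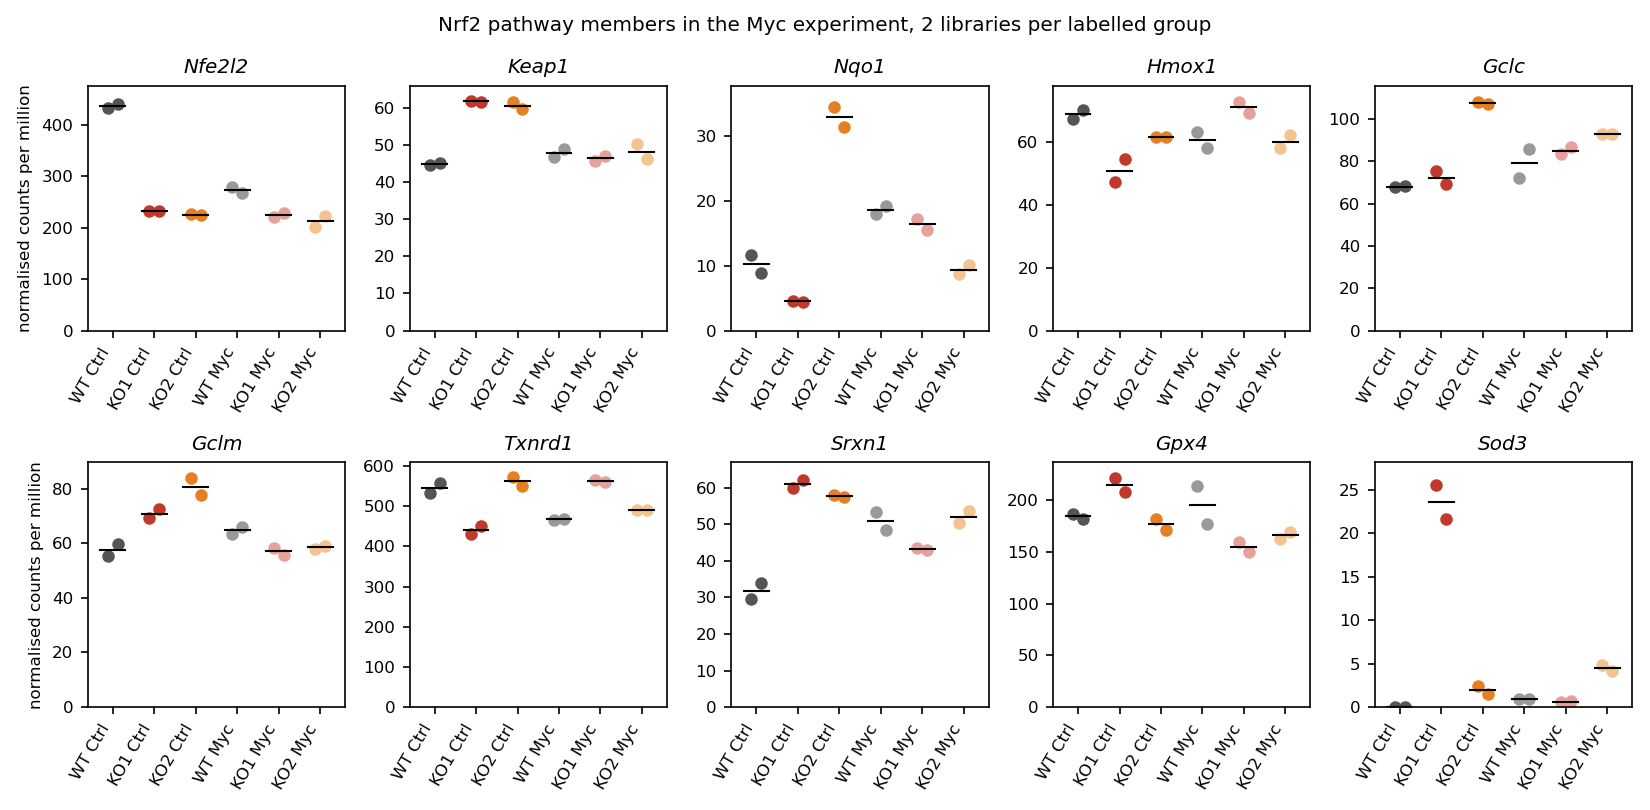
Scaled CPM (vertical axes, starting at 0 and differing between genes) of the 10 members in the 6 labelled groups of the Myc experiment. Points are libraries, 2 per group, and black lines are their means. Nfe2l2 is highest in WT Ctrl, at 433 and 440 CPM, Nqo1 is highest in KO2 Ctrl and lowest in KO1 Ctrl, and Sod3 is highest in KO1 Ctrl.

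The first question was whether the pathway differs between cells with and without Trim33. With the Ctrl vector, Nfe2l2 mRNA was lower and Keap1 mRNA higher in both knockout lines, the targets Srxn1 and Gclm were higher in both, and Nqo1 moved in opposite directions in the 2 lines. In KO1, 3 of the 9 members tested were called higher, where 25.5% of all genes were, and 4 were called lower, where 26.7% of all genes were. In KO2, 5 of 9 were called higher, against 23.3% of all genes, and 1 lower, against 26.6%. With so many genes called across the table, these counts are not read as a result about the pathway, and the account rests on single genes.

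Nfe2l2 stood at 433 and 440 CPM in the WT libraries, at 232 and 232 CPM in KO1 and at 227 and 224 CPM in KO2. All 4 knockout libraries were below both WT libraries, and the lines lay side by side. The fall was 1.88-fold in KO1 (log2FC -0.91 ± 0.06 SE, adjusted p = 5.91e-10, edgeR quasi-likelihood test) and 1.94-fold in KO2 (log2FC -0.95 ± 0.06, adjusted p = 5.33e-10, edgeR). Between the knockout lines the difference did not pass (log2FC -0.04, 95% interval -0.15 to 0.07, edgeR).

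Keap1, the repressor of Nrf2 protein, went the other way. It was at 44.7 and 45.3 CPM in WT, 61.9 and 61.7 CPM in KO1 and 61.6 and 59.7 CPM in KO2. WT and knockout libraries did not overlap, and the rise was 1.37-fold in KO1 (adjusted p = 1.7e-05, edgeR) and 1.35-fold in KO2 (adjusted p = 3.76e-05, edgeR).

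Among the genes known as Nrf2 targets, Srxn1, which restores oxidised peroxiredoxins and whose promoter is shown above, rose most evenly. Its libraries were at 29.6 and 33.8 CPM in WT, 59.95 and 62.1 CPM in KO1 and 58.0 and 57.6 CPM in KO2, so that each knockout library was above both WT libraries. The rise was 1.92-fold in KO1 (log2FC 0.94 ± 0.08 SE, adjusted p = 2.8e-08, edgeR) and 1.82-fold in KO2 (log2FC 0.86 ± 0.08, adjusted p = 9.87e-08, edgeR). Its direction was thus opposite to that of Nfe2l2 mRNA in the same libraries.

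Nqo1, a quinone reductase often used as a readout of Nrf2, separated the knockout lines. WT libraries held 11.7 and 8.82 CPM, KO1 libraries 4.52 and 4.47 CPM, and KO2 libraries 34.4 and 31.4 CPM. WT lay between the 2 lines with no overlap. Nqo1 was 2.28-fold lower in KO1 (adjusted p = 1.02e-05, edgeR) and 3.2-fold higher in KO2 (adjusted p = 5.76e-09, edgeR), and the lines themselves differed 7.3-fold (log2FC 2.87 ± 0.14 SE, adjusted p = 1.86e-10, edgeR).

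Glutathione is made in 2 steps, the first by glutamate-cysteine ligase, whose catalytic subunit is Gclc and whose modifier subunit is Gclm. Gclm was at 55.2 and 59.9 CPM in WT, 69.1 and 72.4 CPM in KO1 and 83.9 and 77.6 CPM in KO2, with no overlap between WT and knockout. It rose 1.23-fold in KO1 (adjusted p = 0.0012, edgeR) and 1.4-fold in KO2 (adjusted p = 1.09e-05, edgeR). The KO1 call did not hold without WT replicate 1 (adjusted p = 0.0237, edgeR) or without KO1 replicate 2 (adjusted p = 0.0182, edgeR).

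Gclc was called in KO2 and not in KO1. WT libraries were at 68.0 and 68.3 CPM, KO1 libraries at 75.5 and 69.4 CPM, and KO2 libraries at 108 and 107 CPM. The KO2 rise was 1.58-fold (adjusted p = 1.08e-06, edgeR), the KO1 difference had a log2FC of 0.09 with a 95% interval from -0.06 to 0.24, and KO2 exceeded KO1 by 1.49-fold (adjusted p = 1.85e-05, edgeR).

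Hmox1, which opens haem and releases iron, and Txnrd1, the cytosolic thioredoxin reductase, were lower in KO1. Hmox1 was at 67.2 and 70.3 CPM in WT, 47.2 and 54.4 CPM in KO1 and 61.4 and 61.5 CPM in KO2. The fall was 1.35-fold in KO1 (adjusted p = 0.000121, edgeR) and did not pass in KO2 (log2FC -0.16, adjusted p = 0.0762, edgeR). Txnrd1 was at 533 and 557 CPM in WT, 432 and 451 CPM in KO1 and 573 and 552 CPM in KO2, a 1.24-fold fall in KO1 (adjusted p = 5.81e-05, edgeR) with KO2 overlapping WT. KO2 was 1.27-fold above KO1 in Txnrd1 (adjusted p = 5.91e-05, edgeR).

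Gpx4, which reduces lipid hydroperoxides and guards against ferroptosis, was at 187 and 182 CPM in WT, 221 and 208 CPM in KO1 and 182 and 171 CPM in KO2. Neither line passed against WT (adjusted p = 0.0178 in KO1 and 0.504 in KO2, edgeR), although KO1 passed with the compared groups alone (adjusted p = 0.000154, edgeR) and with the replicate number as a block (adjusted p = 0.00831, edgeR). Between the lines, 3 of 9 members were called higher in KO2, where 8.33% of all genes were, and 1 lower, where 9.96% were. The lower one was Gpx4 (1.22-fold, adjusted p = 0.00986, edgeR), a call lost with RLE normalization (adjusted p = 0.0114, edgeR), with genes under a mean of 5 CPM left out (adjusted p = 0.0109, edgeR) and without any 1 of the 4 libraries (adjusted p 0.0251 to 0.108, edgeR).

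**Figure D2:**
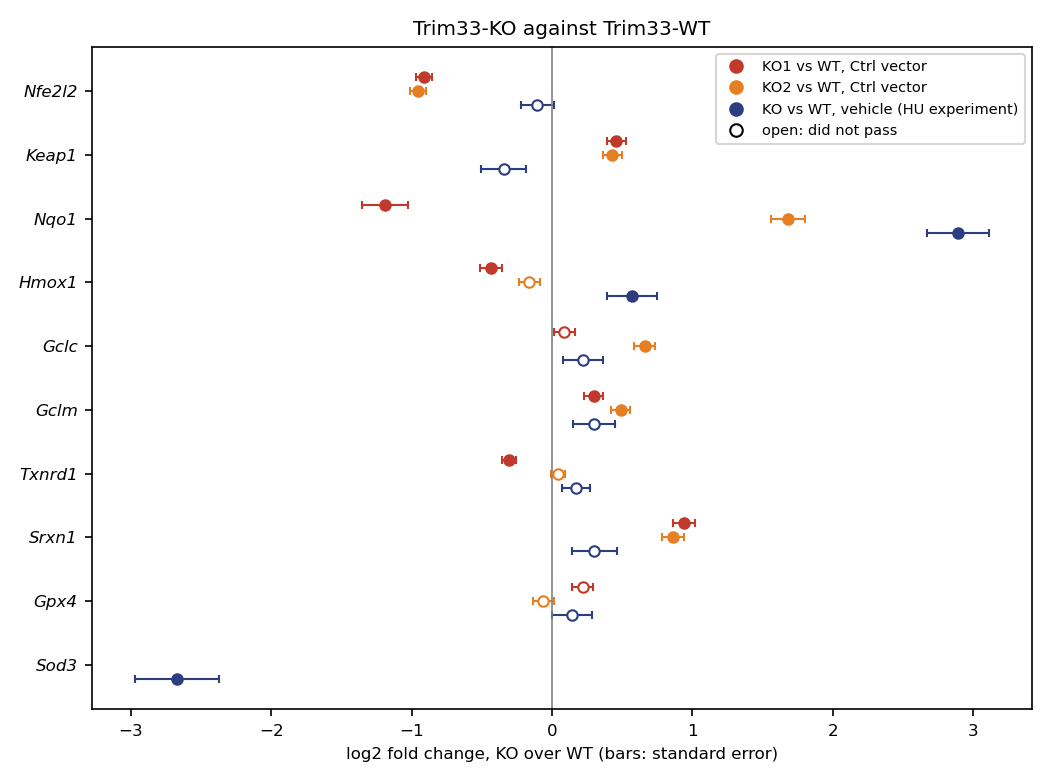
Log2 fold change of each member in Trim33-KO over Trim33-WT cells (horizontal axis), with standard errors as bars, for KO1 and KO2 with the Ctrl vector and for the KO cells of the HU experiment under vehicle. Filled points passed the test and open points did not. Nqo1 is at -1.19 in KO1, 1.68 in KO2 and 2.89 in the HU experiment. Sod3 is drawn only for the HU experiment, where it is at -2.67, because the KO1 Ctrl and WT Ctrl libraries chose it.

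Sod3 encodes the secreted superoxide dismutase of the extracellular matrix. With the Ctrl vector, WT libraries had counts of 0 and 0, KO1 libraries 384 and 329, and KO2 libraries 38 and 24. As a description, since WT Ctrl is in the contrast that chose it, KO1 was at least 113-fold and KO2 at least 9.7-fold above WT, taking WT at the limit of 3 counts per library, or 0.209 CPM. Under the Myc labels WT had counts of 15 and 16, KO1 of 10 and 11, and KO2 of 82 and 76, so the gene was detected in every library except those of WT Ctrl, and KO1 was no longer the highest. Ordered by mean level, the groups ran from WT Ctrl through KO1 Myc (0.63 ± 0.07 CPM, SD, n = 2), WT Myc (0.96 ± 0.02 CPM), KO2 Ctrl (2.02 ± 0.65 CPM) and KO2 Myc (4.53 ± 0.47 CPM) to KO1 Ctrl (23.6 ± 2.78 CPM). The order is a description, since KO1 Ctrl and WT Ctrl chose the gene. KO1 Myc and WT Myc did not overlap, but their difference did not pass the test (log2FC -0.60, 95% interval -1.41 to 0.21, edgeR).

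The libraries of the HU experiment had no part in the choice of Sod3, and there the gene was lower in KO than in WT cells. WT libraries held 43.7 and 41.4 CPM under vehicle and 43.9 and 47.1 CPM under HU, and KO libraries held 8.13 and 5.35 CPM under vehicle and 7.07 and 7.11 CPM under HU. All 4 KO libraries were below all 4 WT libraries. Sod3 was 6.36-fold lower in KO under vehicle (log2FC -2.67 ± 0.30 SE, adjusted p = 3.3e-10, edgeR) and 6.38-fold lower under HU (log2FC -2.67 ± 0.29, adjusted p = 1.11e-10, edgeR). The 2 tables were normalised separately and the difference between the experiments was not tested, but the WT cells that had 0 counts in one were above 40 CPM in the other.

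Without HU, 2 of the 10 members were called higher in KO than WT, against 6.29% of all genes, and 1 lower, against 5.74%. Nqo1 was at 9.85 and 18.8 CPM in WT and at 109 and 108 CPM in KO. The groups were far apart, with a 7.43-fold rise (log2FC 2.89 ± 0.22 SE, adjusted p = 2.45e-16, edgeR), the direction seen in KO2 and not in KO1 with the Ctrl vector. Hmox1, at 38.6 and 52.6 CPM in WT and 69.9 and 66.2 CPM in KO, rose 1.48-fold (adjusted p = 0.0262, edgeR), but not by DESeq2 (adjusted p = 0.0848) or with the compared groups alone (adjusted p = 0.0604, edgeR), nor without WT replicate 1 (0.303), KO replicate 1 (0.117) or KO replicate 2 (0.0672).

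Nfe2l2 and Keap1 did not repeat their Ctrl-vector differences past the test there. Nfe2l2 was at 207 and 197 CPM in WT and 194 and 182 CPM in KO (log2FC -0.10, 95% interval -0.33 to 0.12), an interval that does not reach the fall measured in KO1 or KO2. Keap1 was at 97.7 and 86.1 CPM in WT and 66.7 and 77.5 CPM in KO (log2FC -0.34, 95% interval -0.66 to -0.03, adjusted p = 0.161, edgeR). Srxn1 (log2FC 0.30), Gclm (0.30), Gclc (0.22), Txnrd1 (0.17) and Gpx4 (0.14) had positive values that did not pass.

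Under HU, KO against WT gave 1 of 10 members higher, against 5.75% of all genes, and 1 lower, against 5.25%, and these were Nqo1 and Sod3. Nqo1 was at 15.6 and 20.1 CPM in WT and 87.0 and 73.9 CPM in KO, a 4.52-fold difference (adjusted p = 1.93e-12, edgeR). With the compared groups alone, 5 members were called, adding Hmox1, Gclc and Txnrd1, all higher in KO. Calls over the whole table rose as well, from 1233 of 11210 genes to 1893 of 10979, so nothing particular to the members is read from this.

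**Figure D3:**
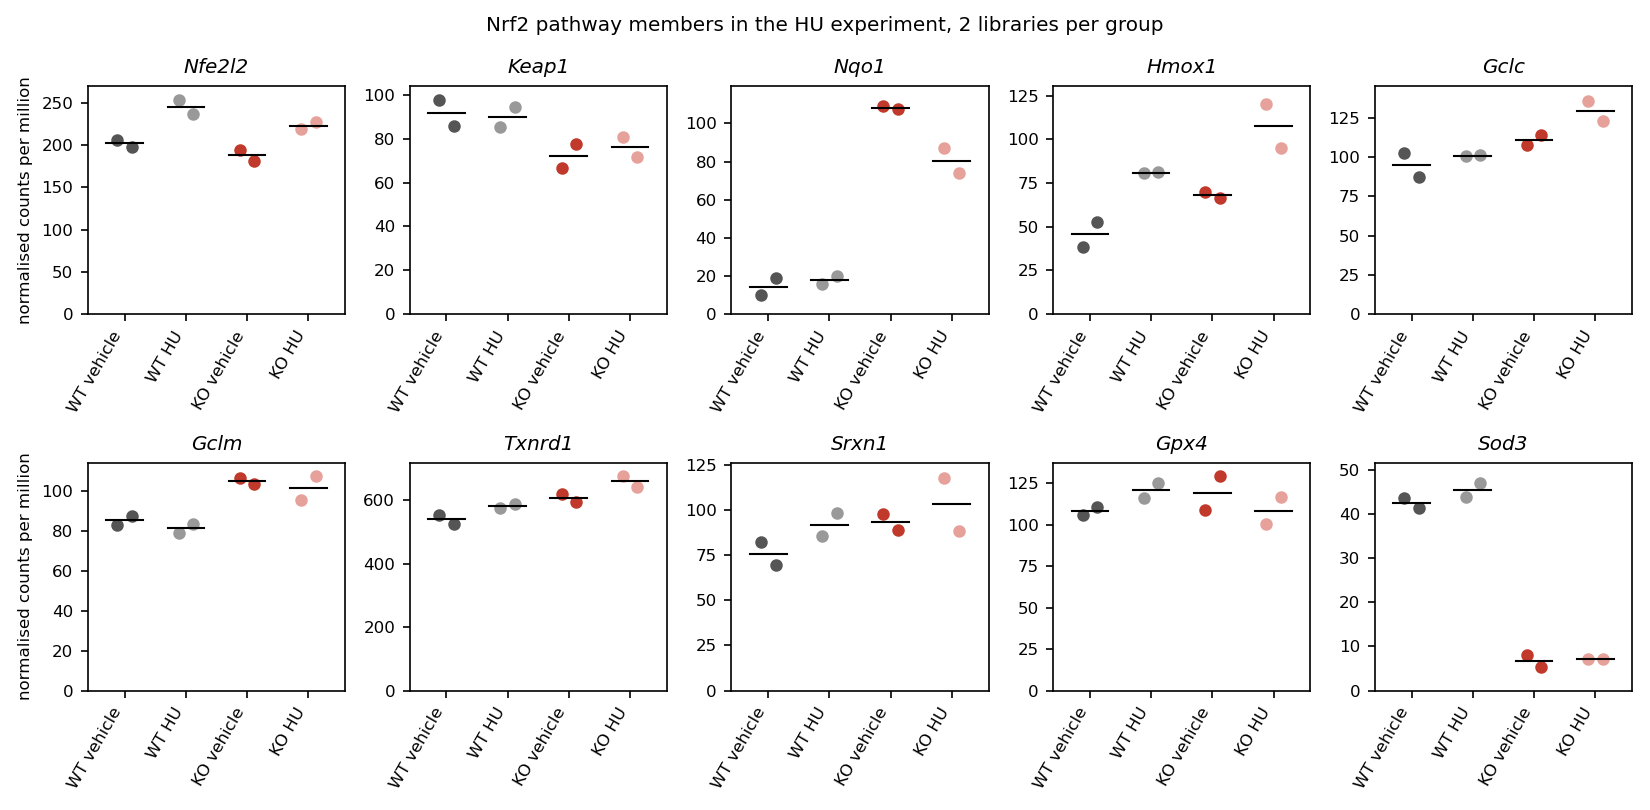
Scaled CPM (vertical axes, starting at 0 and differing between genes) of the 10 members in the 4 groups of the HU experiment. Points are libraries, 2 per group, and black lines are their means. Hmox1 is higher with HU in both genotypes, Nqo1 is higher and Sod3 lower in all 4 KO libraries than in any WT library.

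The next comparison asked how the members respond to replicative stress. Hmox1 was the member called after HU, higher in both genotypes. In WT cells it went from 38.6 and 52.6 CPM with vehicle to 80.8 and 81.0 CPM with HU, and in KO cells from 69.9 and 66.2 CPM to 120 and 95.2 CPM. In neither genotype did HU and vehicle libraries overlap. The rise was 1.77-fold in WT (log2FC 0.82 ± 0.17 SE, adjusted p = 0.00049, edgeR) and 1.59-fold in KO (log2FC 0.67 ± 0.16, adjusted p = 0.00416, edgeR). The KO call was lost without KO HU replicate 1 (adjusted p = 0.25, edgeR) or without KO vehicle replicate 2 (adjusted p = 0.0612, edgeR).

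That made 1 of 10 members called higher in WT, against 6.39% of all genes, and 1 of 10 in KO, against 4.65%. Called lower were 0 of 10 in each, against 3.44% of all genes in WT and 1.80% in KO. Nfe2l2 was higher with HU in all 4 HU libraries than in the vehicle libraries of the same genotype, at 254 and 237 against 207 and 197 CPM in WT, and at 219 and 227 against 194 and 182 CPM in KO. Neither difference passed (log2FC 0.28, adjusted p = 0.116 in WT, and log2FC 0.25, adjusted p = 0.241 in KO, edgeR). Nqo1 had values of 0.29 in WT and -0.43 in KO on the log2 scale, neither past the test.

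The test of whether HU acts differently in KO and WT cells called 0 of 10 members (edgeR), where 0.0714% of all genes were called. At an unadjusted p under 0.05 the edgeR test gave 1 member, Nqo1 (log2 difference -0.72, adjusted p = 0.863), and DESeq2 called 0. For Hmox1 the difference of the responses was -0.15 on the log2 scale, with a 95% interval from -0.62 to 0.32, so that a moderate difference would not have been seen at this depth.

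**Figure D4:**
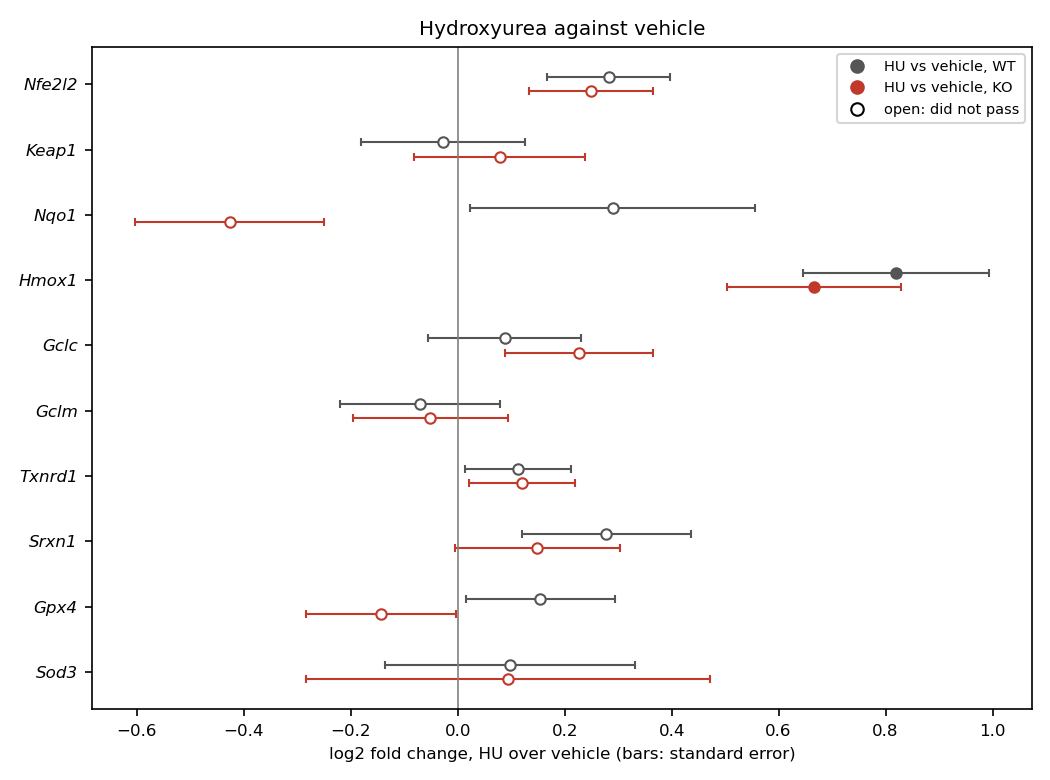
Log2 fold change of each member with HU over vehicle (horizontal axis), with standard errors as bars, in Trim33-WT and Trim33-KO cells. Filled points passed the test and open points did not. Hmox1, at 0.82 in WT and 0.67 in KO, has the filled points.

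The Myc vector was compared with the Ctrl vector in each line. In WT, Trim33 mRNA was also lower under the Myc label, and its part in the differences below was not tested. In the libraries labelled WT Myc, 2 of 9 members were called higher than in WT Ctrl, against 21.6% of all genes, and 2 lower, against 22.7%. Nfe2l2 fell 1.6-fold, from 433 and 440 to 278 and 267 CPM (log2FC -0.68 ± 0.06 SE, adjusted p = 4.85e-08, edgeR). Srxn1 rose 1.6-fold, from 29.6 and 33.8 to 53.3 and 48.6 CPM (adjusted p = 2.56e-06, edgeR), and Nqo1 rose 1.81-fold, from 11.7 and 8.82 to 18.0 and 19.2 CPM (adjusted p = 3.3e-05, edgeR). Both had moved apart from WT Ctrl with no overlap. Txnrd1 fell 1.17-fold (adjusted p = 0.0013, edgeR), which did not hold with the compared groups alone (adjusted p = 0.0408, edgeR) or without WT Ctrl replicate 2 (adjusted p = 0.0217, edgeR).

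In KO1, 3 of 9 members were called higher with Myc, against 17.9% of all genes, and 4 lower, against 18.2%. Nqo1 rose 3.65-fold, from 4.52 and 4.47 to 17.3 and 15.6 CPM (adjusted p = 4.52e-08, edgeR), Hmox1 rose 1.4-fold (adjusted p = 7.28e-05, edgeR) and Txnrd1 1.28-fold (adjusted p = 2.55e-05, edgeR). Keap1 fell 1.33-fold (adjusted p = 8.12e-05, edgeR), Srxn1 1.41-fold (adjusted p = 4.33e-05, edgeR), Gpx4 1.39-fold (adjusted p = 7.79e-05, edgeR) and Gclm 1.24-fold (adjusted p = 0.00123, edgeR). The Gclm fall was not called without KO1 Ctrl replicate 2 (adjusted p = 0.0202, edgeR) or KO1 Myc replicate 2 (adjusted p = 0.0179, edgeR).

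In KO2, 1 of 10 members was called higher with Myc, against 20.2% of all genes, and 4 lower, against 18.6%. Nqo1 fell 3.5-fold, from 34.4 and 31.4 to 8.66 and 10.1 CPM (adjusted p = 3.78e-09, edgeR), the reverse of its rise in KO1. Gclm fell 1.38-fold (adjusted p = 2.6e-05, edgeR), Keap1 1.26-fold (adjusted p = 0.000539, edgeR) and Txnrd1 1.15-fold (adjusted p = 0.0036, edgeR). Sod3, the member counted as higher, rose 2.23-fold, which is a description, since KO2 Ctrl may have entered its choice. The Txnrd1 call was lost without any 1 of the 4 libraries, and that of Keap1 without KO2 Myc replicate 2.

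The knockout lines were also compared with WT among the libraries labelled Myc. Over the whole table, 3291 genes were called in KO1 and 4614 in KO2, against 6842 and 6545 with the Ctrl vector. KO1 had 1 of 10 members higher, against 12.6% of all genes, and 2 lower, against 12.5%. Nfe2l2 was 1.22-fold lower, at 220 and 227 CPM against 278 and 267 CPM (adjusted p = 0.000789, edgeR), Gpx4 1.26-fold lower (adjusted p = 0.00224, edgeR) and Txnrd1 1.21-fold higher (adjusted p = 0.000526, edgeR). With the compared groups alone none of these 3 passed (adjusted p 0.0226 to 0.0413, edgeR). Left out in turn, WT Myc replicate 1, KO1 Myc replicate 1 or KO1 Myc replicate 2 ended the call of Gpx4 (0.0197, 0.0104 and 0.0355), and KO1 Myc replicate 1 that of Nfe2l2 (0.0223).

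KO2 had 1 of 10 higher, against 17.2% of all genes, and 2 lower, against 18.0%. Sod3 was 4.68-fold higher (log2FC 2.23 ± 0.27 SE, adjusted p = 6.18e-06, edgeR), Nqo1 1.97-fold lower (adjusted p = 8.86e-06, edgeR) and Nfe2l2 1.28-fold lower (adjusted p = 5.97e-05, edgeR). Nqo1 was thus below WT in KO2 Myc, although KO2 Ctrl had been above WT. Srxn1 was at 50.2 and 53.6 CPM in KO2 Myc and 53.3 and 48.6 CPM in WT Myc, overlapping.

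The change in the knockout effect from the Ctrl to the Myc vector was tested as an interaction. It was called for 8 of 9 members in KO1, where 37.3% of all genes were called, and for 6 of 9 in KO2, where 32.8% were. The knockout effect on Nfe2l2 was less negative with Myc by 0.63 on the log2 scale in KO1 (adjusted p = 6.35e-06, edgeR) and by 0.59 in KO2 (adjusted p = 1.37e-05, edgeR). The effect on Srxn1 was lower by 1.18 in KO1 and 0.83 in KO2, and on Keap1 by 0.50 and 0.42. For Nqo1 the interaction was 1.01 in KO1 and -2.66 in KO2. These shifts go against the Ctrl-vector direction of each gene and line. The Ctrl-vector effect enters the interaction with a minus sign, so that an opposite sign is partly built in and nothing is read from it. With Myc against Ctrl, Nfe2l2 had a log2FC of -0.68 in WT, -0.05 in KO1 and -0.09 in KO2, and only WT was called. Srxn1 had 0.68, -0.50 and -0.15, with WT and KO1 called, and Keap1 0.09, -0.41 and -0.33, with KO1 and KO2 called. The libraries labelled WT Myc, whose pair was furthest apart and whose Myc mRNA did not rise past the test, enter all these interactions. All comparisons with WT Ctrl share its 2 libraries, so these values are not independent of each other. Trim33 mRNA itself did not follow the labels in KO1 Myc, and it was lower in WT Myc than in WT Ctrl. Without KO2 Ctrl replicate 1 or KO2 Myc replicate 2 the Keap1 interaction in KO2 was not called (adjusted p = 0.0105 and 0.0123, edgeR), and the Gclc interaction of -0.43 there (adjusted p = 0.00306, edgeR) was lost without any of 6 libraries (adjusted p 0.01 to 0.0137, edgeR).

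Beyond the members, 76 other genes of the pathway were listed in groups by role, of which 70 were in the Myc table and 66 in the HU table. With the Ctrl vector, 26 of the 70 were called higher and 22 lower in KO1, beside 25.5% and 26.7% of all genes, and 31 higher and 20 lower in KO2, beside 23.3% and 26.6%. The same shares of all genes stand beside the counts of each group that follows, and nothing particular to a group is read from them. The median log2FC over the 70 was 0.08 in KO1 and 0.22 in KO2, beside -0.00362 and -0.0112 over all genes. Near-identical copies such as Gsta1 and Gsta2, or Gstp1 and Gstp2, share reads and are uncertain one by one.

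Of 9 genes that regulate or partner Nrf2, 5 fell in KO1 and 6 in KO2 with the Ctrl vector, and 0 rose in either, among them the small Maf genes Mafg and Mafk, the ligase scaffold Cul3, the related factor Nfe2l1 and Sqstm1, an autophagy receptor that binds Keap1. Sqstm1 went from 2417 ± 30.2 CPM (SD, n = 2) in WT to 830 ± 29.2 CPM in KO2, and Nfe2l1 from 611 ± 7.62 to 259 ± 7.45 CPM. The mRNAs of the cystine transporter were lower too. Slc3a2, the heavy chain of the cystine transporter, was 4.06-fold lower in KO1 (adjusted p = 1.23e-10, edgeR) and 3.57-fold lower in KO2 (adjusted p = 5.37e-10, edgeR), and its partner Slc7a11 was called lower in both. In the untreated KO cells of the HU experiment, 1 regulator was called higher, Sqstm1 (716 ± 60 CPM, SD, n = 2, in KO and 582 ± 11.7 CPM in WT), and 0 lower. Slc7a11 was called higher there (107 ± 15.3 and 74.6 ± 3.49 CPM). The experiments have unlike depth and thresholds, and the difference between them was not tested. Over the whole list of 66 there, 7 were called higher and 3 lower in KO under vehicle, beside 6.29% and 5.74% of all genes, and 8 higher and 4 lower under HU, beside 5.75% and 5.25%.

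Of 14 glutathione peroxidases and transferases, 9 were called higher and 4 lower in KO1 with the Ctrl vector, and 11 higher and 1 lower in KO2. In the untreated KO cells of the HU experiment 1 of 12, Gpx1, was called higher and 0 lower. Mgst1, a membrane-bound transferase, rose 2.65-fold in KO1 (from 16.2 ± 1.31 to 42.8 ± 0.98 CPM, adjusted p = 1.14e-09, edgeR). Of 6 genes that supply NADPH, 5 were higher in KO1 and 4 in KO2, and 0 were lower, with Pgd, Taldo1, Tkt and Idh1 in both. In the thioredoxin group, 5 rose and 3 fell in KO1, 4 rose and 5 fell in KO2, of 14, and Glrx, a glutaredoxin, rose 2.76-fold in KO1 and 3.21-fold in KO2 (adjusted p = 2.58e-08 and 4.62e-09, edgeR). Of 4 superoxide dismutases and catalase, Sod2 rose in KO1, and Sod1 and Sod2 in KO2. Of 12 genes for quinone, carbonyl and haem handling and iron storage, 5 rose and 5 fell in KO1 and 7 rose and 3 fell in KO2, and of 5 efflux transporters 1 rose and 2 fell in KO1 and 2 rose and 2 fell in KO2.

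**Figure D5:**
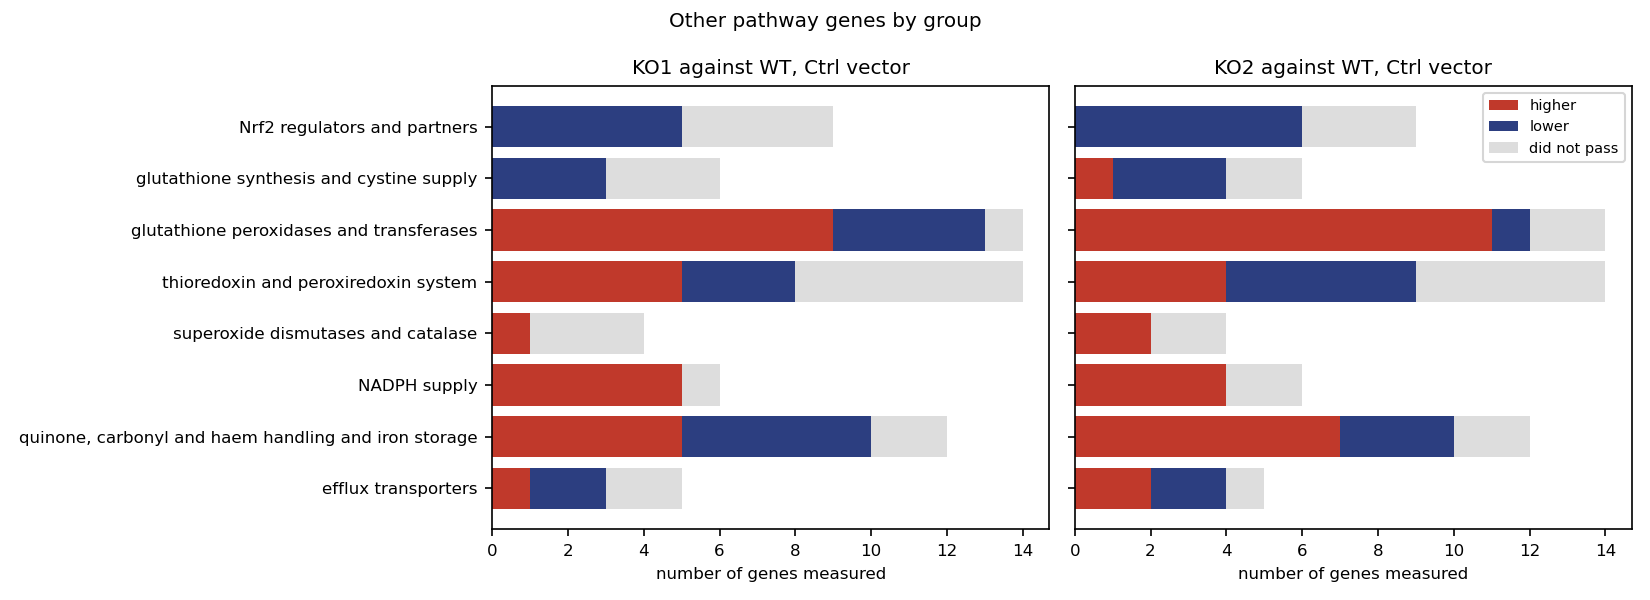
Number of measured genes (horizontal axis) in each group of other pathway genes that were called higher, called lower or did not pass, in KO1 and KO2 against WT with the Ctrl vector. Regulators of Nrf2 hold no gene called higher in either line, with 5 and 6 called lower. Of the 14 glutathione peroxidases and transferases, 9 and 11 are called higher and 4 and 1 lower. Of all genes, 25.5% were called higher and 26.7% lower in KO1, and 23.3% and 26.6% in KO2, and nothing particular to a group is read.

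The named genes with the widest changes included a transporter and an aldehyde dehydrogenase. Abcg2, an efflux pump for xenobiotics and porphyrins, went from 0.87 ± 0.17 CPM in WT to 30.4 ± 1.76 CPM in KO1 and 12.5 ± 0.45 CPM in KO2, 34.6-fold and 14.3-fold higher (adjusted p = 1.03e-12 and 2.87e-10, edgeR). Aldh3a1, which clears reactive aldehydes, was 3.81-fold higher in KO2, at 290.0 ± 19.2 against 76.1 ± 11.5 CPM (adjusted p = 1.04e-11, edgeR). Lower in KO1 were Osgin1 (3.85-fold, adjusted p = 1.24e-10, edgeR) and Abcc4, another efflux pump (3.17-fold, adjusted p = 3.84e-11, edgeR). In the HU experiment Abcc4 was instead called higher in KO, at 111 ± 10.4 CPM against 80.0 ± 2.82 CPM in WT under vehicle. Osgin1 was called lower there too, at 15.57 ± 8.22 CPM in KO and 28.55 ± 6.88 CPM in WT. Abcg2 and Aldh3a1 were not called there, with Abcg2 at 2.29 ± 1.35 CPM in KO and 6.79 ± 4.75 CPM in WT.

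After HU, 6 of the 66 were called higher and 3 lower in WT cells, beside 6.39% and 3.44% of all genes, and 6 higher and 0 lower in KO cells, beside 4.65% and 1.80%, with Maff, Sqstm1, Slc7a11, Slc3a2 and Txnip higher in both. Txnip, the inhibitor of thioredoxin, rose 15.7-fold in WT (from 13.3 ± 2.45 to 211 ± 13.6 CPM, adjusted p = 1.31e-26, edgeR) and 10.4-fold in KO (adjusted p = 3.24e-22, edgeR). Slc7a11, the cystine transporter, rose 3.43-fold in WT (adjusted p = 1.56e-17, edgeR) and 2.48-fold in KO (adjusted p = 9.44e-13, edgeR), and Maff 3.63-fold and 2.94-fold. Lower in WT were Nqo2, Gsta4 and Txn1, by 1.79-fold, 1.67-fold and 1.29-fold (adjusted p = 0.0428, 0.0321 and 0.015, edgeR). Of 12 glutathione peroxidases and transferases and 6 NADPH genes in the HU table, 0 were called higher after HU in either genotype. Beside the shares of all genes called higher, 6.39% in WT and 4.65% in KO, nothing is read from this.

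With the Myc vector in WT cells, 28 of the 70 were called higher and 14 lower, beside 21.6% and 22.7% of all genes. Txnip rose 8.77-fold (from 18.0 ± 2.04 to 159 ± 14.3 CPM, adjusted p = 4.38e-11, edgeR), Gstm1, a cytosolic glutathione transferase, 2.77-fold (adjusted p = 7.55e-11, edgeR) and Mgst1 2.35-fold (adjusted p = 1.73e-08, edgeR). Abcc4 fell 2.37-fold, Sqstm1 1.67-fold and Gsto1 1.62-fold (adjusted p = 3.03e-09, 1.13e-05 and 3.15e-08, edgeR). In KO1, Myc gave 20 higher and 15 lower, beside 17.9% and 18.2% of all genes, and in KO2 19 higher and 23 lower, beside 20.2% and 18.6%. Between the groups labelled Myc, 7 were higher and 16 lower in KO1 than in WT, beside 12.6% and 12.5% of all genes, and 11 higher and 25 lower in KO2, beside 17.2% and 18.0%.

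Genes whose levels followed a member most closely over the 12 libraries of the Myc experiment were ranked by Pearson's r of log2(CPM + 0.1), as a description, since the libraries fall into 6 groups of 2. For Sod3 they were Vasn (r = 0.982), 4933412E12Rik (0.978) and Elk3 (0.976), over libraries that include the KO1 Ctrl and WT Ctrl pairs that chose it. For Nqo1 they were Rabl6 (0.944), Ppp1r13b (0.927) and Ninl (0.926), and for Hmox1 Zpr1 (0.942), Top1mt (0.936) and Pelp1 (0.933). None of them is in the lists of pathway genes, and ranking by Spearman's rho kept only Pelp1.

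Cell type markers moved with some of the same groups. The summed level of the 5 hepatoblast and epithelial markers was 4371 to 4527 CPM in WT Ctrl and 3235 to 3274 CPM in KO1 Ctrl. It was 3498 to 3557 CPM in KO2 Ctrl and 1944 to 1975 CPM in KO2 Myc. Of 6 mesenchymal markers, 5 were found (Vim, Col1a1, Col1a2, Col3a1 and Acta2). Their sum was 2897 to 3090 CPM in WT Ctrl and 4013 to 4077 CPM in KO1 Ctrl, the group with the highest Sod3. In the HU experiment 3 of the 6 mesenchymal markers were found, at 2654 to 2928 CPM in untreated WT, where Sod3 was high, and at 3058 to 3408 CPM in untreated KO, where it was low. Hepatoblast and epithelial markers were there at 2211 to 2512 CPM in untreated WT and 2712 to 3138 CPM in untreated KO. Of 4 immune markers only Cd68 was measured, at no more than 6.30 CPM. The part of these differences in the members' values was not tested.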

How the data were processed

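The authors mapped reads to mm9 with STAR 2.5.4 and tested genes with edgeR 3.26.8. They deposited 1 table of whole-number counts per gene for each experiment. The name of the Myc table calls its counts normalized, but no normalization was detected in the values, and they were fitted as counts. The counting tool and strandedness are not given in the sources used here, and the labels and the study's methods name different RNA and library kits. Of counts from 1 to 50, 71.9% were even in the HU table, against 48.4% in the Myc table, and the part of this in the precision was tested only by halving the HU counts, which ended none of the members' calls. The authors' own comparison tables (log2 fold changes, averages, test scores, p-values) were not used.

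Each table was fitted alone in edgeR 4.0.16 (R 4.3.3, limma 3.58.1) with TMM factors, filterByExpr, 1 coefficient per group and the quasi-likelihood F test, with Benjamini-Hochberg adjustment over each table. The thresholds, 0.01 and 0.05, are those the study names for the Myc and the HU data. The fit was tested on simulated data. With 2 libraries per group, an exact permutation of the labels of any 2 groups could not fall below a p of 0.05. Alternatives were DESeq2 1.42.0, RLE factors, no filter, a mean of at least 5 CPM, compared groups alone, a replicate block and leaving out each library. Other pathway genes are named by rule, the 3 largest rises and 3 largest falls among called genes with a mean of at least 5 CPM and groups that do not overlap. The members and lists were chosen with earlier results of these data known. Intervals are 1.96 SE, and lower bounds take 3 counts per library, covering counting error only. Rows without a gene symbol numbered 298 and 168 and stayed in the fits under their own identifiers. Sequences were read with Python 3.11.15.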

Additional observations from a re-analysis of the deposited data

Results flagged for a closer look

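The knockout lines differed from each other with the Ctrl vector in 4 members. KO2 was above KO1 in Nqo1 by 2.868, in Gclc by 0.5736 and in Txnrd1 by 0.3499 on the log2 scale, and Gpx4 had a difference of -0.2813, all past the test of the difference itself in edgeR. Nqo1 was above WT in KO2 and below it in KO1, so that the lines have no common direction for this gene.

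The knockout effect changed between the Ctrl and the Myc vector, by the test of the interaction in edgeR. In KO1 the log2 change of the effect was 0.628 for Nfe2l2, -0.503 for Keap1, 1.011 for Nqo1, 0.6647 for Hmox1, -0.4801 for Gclm, 0.5751 for Txnrd1, -1.179 for Srxn1 and -0.558 for Gpx4. In KO2 it was 0.5936 for Nfe2l2, -0.4213 for Keap1, -2.662 for Nqo1, -0.429 for Gclc, -0.6349 for Gclm and -0.8349 for Srxn1. With Myc against Ctrl, Nfe2l2 itself was called in WT (log2FC -0.68) and not in KO1 (-0.05) or KO2 (-0.09). Trim33 mRNA was 0.40 higher on the log2 scale in KO1 Myc than in WT Myc, and 0.82 lower in WT Myc than in WT Ctrl. The part of these Trim33 differences in the interaction was not tested.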

How the results depend on the processing

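Alternatives were followed for 129 tests of members, which leave out the interaction tests that were not called. Of the 129, 60 were called, 0 of these 60 reversed under any alternative run, and 14 lost their call under at least one. Over all 1386 alternative values, 1307 kept direction and call, 40 lost the call, 18 gained one and 21 reversed. With compared groups alone, the members called went from 3 to 0 in KO1 against WT with Myc, and from 2 to 5 in KO against WT under HU. Over the whole table, calls went from 3291 of 13107 genes to 1541 of 12605 in the first, and from 1233 of 11210 to 1893 of 10979 in the second. Leaving out 1 library, they ranged from 3 to 4 for Myc in KO2, from 1 to 5 in KO1 and from 3 to 5 in KO2 against WT with Myc, and from 0 to 1 for HU in KO. The causes were not tested.

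The reversed values belong to tests that were not called. Hmox1 in KO2 against WT with Myc was 0.00541 with a mean of at least 5 CPM. Leaving out 1 library, log2 differences ranged from -0.0577 to 0.216 for Gpx4 with Myc in WT and from -0.0849 to 0.0186 for Hmox1 with Myc in KO2. In KO1 against WT with Myc they ranged from -0.0778 to 0.000245 for Keap1 and from -0.0135 to 0.237 for Gclc, and in KO2 against WT with Myc from -0.0496 to 0.0666 for Keap1, from -0.072 to 0.0529 for Hmox1 and from -0.0363 to 0.0969 for Srxn1. With HU in WT they ranged from -0.132 to 0.054 for Keap1, from -0.0906 to 0.834 for Nqo1 and from -0.0402 to 0.195 for Gclc. With HU in KO they ranged from -0.0154 to 0.186 for Keap1, from -0.138 to 0.0337 for Gclm, from -0.0791 to 0.339 for Srxn1 and from -0.205 to 0.413 for Sod3, and in KO against WT under HU from -0.0553 to 0.362 for Srxn1.

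Same-numbered libraries did not deviate together in every pair of groups (correlations from -0.356 to 0.485 in the Myc and from -0.0241 to 0.0875 in the HU experiment), so the numbers do not pair the libraries. The replicate block moved the genes called in KO1 with the Ctrl vector from 6842 to 6905, ended no member's call, and let Gpx4 pass there (adjusted p = 0.00831, edgeR) and in KO2 against WT with Myc (adjusted p = 0.00814, edgeR). With 2 libraries per group and the lower depth of the HU libraries, small differences were not detectable.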

Other observations

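Over the 12 comparisons without an interaction, Nqo1 was called in 9, Txnrd1 in 6, Nfe2l2 and Hmox1 in 5 each, Keap1, Gclm and Srxn1 in 4 each, Gpx4 in 3 and Gclc in 2. These comparisons share libraries, so the counts describe how often each gene passed and are not independent of each other.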
